A study of Mus musculus with 2 samples.

Results

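Tcf7, Lef1, Satb1, Bach2, Foxo1, Foxp1 and Foxn3, transcription factors tied to the naive, stem-like and quiescent states of T cells, were followed in single CD4 T cells. The members were taken by their gene names, with no threshold on a value, and all 7 were among the 12432 genes of the expression table. The cells were CD4 T cells specific for 2W1S, purified from C57BL/6 mice, from their spleen together with peripheral lymph nodes, after the mice had been colonized with Candida albicans carrying the 2W1S peptide. There were 178 cells, 96 in the April capture and 82 in the March capture, all with the same colonization label, and the column names divided them into 4 runs, with 25 cells in Mar1, 57 in Mar17, 48 in Apr13 and 48 in Apr21. No uncolonized group was analysed here, the number, age and sex of the mice behind each capture are not stated, and each month is a batch of its own, so that no test between groups was possible and every value is a description of these cells.

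Tcf7, which encodes TCF-1, and Lef1 are HMG-box proteins that bind the same DNA motif, work with β-catenin or with Groucho repressors of the Tle family, and are needed for T cell development and for the long-lived, self-renewing fraction of memory cells. Satb1 organises chromatin loops in thymocytes and T cells. Bach2 is a leucine-zipper repressor that holds back effector genes. Foxo1 is kept out of the nucleus when Akt phosphorylates it, and in quiescent T cells it drives Klf2, Il7r and Ccr7. Foxp1 maintains the quiescence of naive T cells, and Foxn3 is a forkhead repressor first described in cell cycle checkpoints.

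Values were the deposited log2 of a per-million, per-length value plus 1; the linear value is that number before the logarithm. Levels of different genes can therefore be set side by side. The median number of genes above 0 in a cell was 4859 in Mar1, 5491 in Mar17, 4973 in Apr13 and 4921.5 in Apr21. The depth in reads is unknown. In 3 cells of Mar1 mitochondrial genes took over 50% of the signal, and the pair of highest rho and the lists of quiescence, activation and ribosomal protein genes are also given without them. All 12 CD4 T cell markers on the list were in the table. The share of cells with a marker at a linear value of 1 or more had a median of 96.3% over the 12. It ran from 66.3% for Cd5 to 100% for Cd3d, Cd3g, Trbc2 and Lck. Cd4 itself reached that value in 70.8% of cells. Cd8a and Cd8b1 were at 0 in the median cell, and so were the 3 natural killer and innate lymphoid markers measured and, among 4 B cell markers, Pax5. No 2 cells held identical values, and the captures share no column.

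The HMG-box pair stood highest. Tcf7 (ENSMUSG00000000782, mm10 chr11:52252371-52283014, minus strand) ranked 182 among 12432 genes by mean log2 value, and averaged 7.34 ± 0.37 on the log2 scale (SD over 2 captures). Its lowest, median and highest log2 values were 1.001, 6.22 and 10.999 in Mar1, 0.88, 8.92 and 12.37 in Mar17, 0.57, 8.53 and 11.73 in Apr13, and 0.38, 8.70 and 11.28 in Apr21. Most cells of every run were thus high, with a minority near the floor, and the median was lowest in Mar1. Lef1 (ENSMUSG00000027985, chr3:131110471-131224356, plus strand) ranked 284 and averaged 6.09 ± 0.17. Its medians were 4.47 in Mar1, 7.30 in Mar17, 5.90 in Apr13 and 7.03 in Apr21, and over all cells it ran between 0.38 and 12.30. Both genes were above 0 in 100% of cells.

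Satb1 (ENSMUSG00000023927, chr17:51736187-51833290, minus strand) was spread widely over the cells. It ranked 594 and averaged 4.28 ± 0.68, but its log2 values had quartiles of 1.03 and 9.88 in Mar1, 1.14 and 7.28 in Mar17, 0.092 and 7.36 in Apr13, and 0.26 and 6.46 in Apr21. Cells below the lower quartile were thus close to the floor in each run while those above the upper one stood at the height of Tcf7 or Lef1, which the median alone (2.13, 4.74, 1.70 and 2.40, in the same order) does not show. Bach2 (ENSMUSG00000040270, chr4:32238804-32586108, plus strand) was the low member, at rank 5616 with a mean of 0.86 ± 0.42. Its median log2 value was between 0.050 and 0.32 in the 4 runs, and its highest was 10.26, in a cell of Mar17. In 14 of 178 cells its linear value was 10 or more.

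Among the forkhead members, Foxp1 (ENSMUSG00000030067, chr6:98925338-99522721, minus strand) ranked 832, Foxo1 (ENSMUSG00000044167, chr3:52268336-52353221, plus strand) ranked 1171 and Foxn3 (ENSMUSG00000033713, chr12:99190078-99563582, minus strand) ranked 1353. Foxp1 averaged 3.67 ± 0.71, with run means of 4.32, 4.10, 3.21 and 3.12 in chronological order. Foxo1 averaged 3.06 ± 0.19 and had medians of 1.44, 1.55, 1.85 and 1.60, with an upper quartile between 4.63 and 5.98 in every run. Foxo1 was above 0 in 100% of cells yet at a linear value of 10 or more in 65 of them. Foxn3 averaged 2.84 ± 1.47, the widest spread between captures of the 7.

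**Figure D1:**
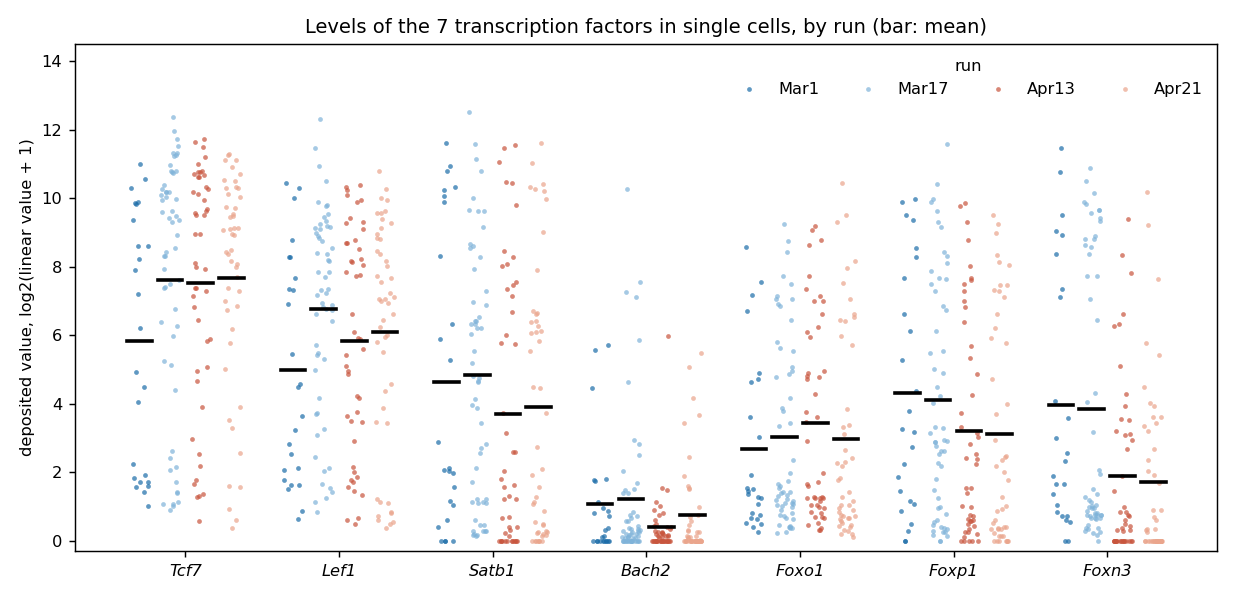
Deposited log2 value of each of the 7 genes (x axis) in every cell, coloured by run, with a bar at each run's mean. Tcf7 and Lef1 are mostly high, Satb1, Foxp1, Foxo1 and Foxn3 spread from near 0 to high values within every run, and most Bach2 values lie near 0.

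The median of the 7 mean log2 values was 3.67, against 0.75 over all genes. Going down the order, Tcf7 lay 1.25 above Lef1 in mean log2 value (SD of the difference over 4 runs 0.44), Lef1 1.81 above Satb1 (SD 0.87), Satb1 0.61 above Foxp1 (SD 0.23) and Foxn3 1.98 above Bach2 (SD 0.92), each in 4 of 4 runs. Foxp1 and Foxo1 differed by 0.60 with an SD of 0.85, in that order in 3 of 4 runs. Foxo1 and Foxn3 differed by 0.22 with an SD of 1.43, in that order in 2 of 4 runs. Neither of these neighbouring pairs differed beyond its spread. Foxp1 and Foxn3 are not neighbours in the order. The run means of Foxn3 were 3.97, 3.84, 1.88 and 1.72 in chronological order, each below that of Foxp1. Cell by cell the order was looser: Tcf7 exceeded Lef1 in 119 of 178 cells, and Satb1 exceeded Foxp1 in 87 of 178. When levels were taken as the log2 of the mean linear value, Satb1 passed Lef1.

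A linear value of 10 or more was reached by Tcf7 in 79.2% of cells (exact Clopper-Pearson 95% interval 72.5% to 84.9%), by Lef1 in 74.2% (67.1% to 80.4%), by Satb1 in 48.9% (41.3% to 56.5%), by Foxp1 in 40.4% (33.2% to 48.0%), by Foxo1 in 36.5% (29.4% to 44.0%), by Foxn3 in 29.8% (23.2% to 37.1%) and by Bach2 in 7.87% (4.37% to 12.8%). These intervals cover counting error only. At a linear value of 1 the shares were 97.2% for Tcf7, 92.7% for Lef1, 69.7% for Satb1 and for Foxo1, 65.7% for Foxp1, 48.3% for Foxn3 and 20.8% for Bach2. Markers of other cell types passed these bars too. Among the B cell markers, Ebf1 was at 1 or more in 88.8% of cells and at 10 or more in 2.81%, Ighm in 61.8% and 25.8%, Cd22 in 42.1% and 9.55% and Pax5 in 14.04% and 2.25%. Among the myeloid markers the shares were 40.4% and 1.69% for Itgam, 39.3% and 24.2% for Cst3 and 2.81% and 2.25% for Csf1r, and Cd8b1 had 19.7% and 10.7%. The shares of Ighm and Cst3 at the higher bar are thus close to that of Foxn3, and those of Cd8b1 and Cd22 are above that of Bach2. A cell is called high below at a linear value of 10 or more. Tcf7l2, the relative of Tcf7 in the same family, passed it in 95.5% of cells but kept within 2.77 and 7.45 on the log2 scale. The SD over cells of the log2 value was 3.48 for Tcf7, against 0.78 for Tcf7l2.

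At the higher bar a cell carried a median of 3 of the 7 factors in April (range 0 to 5) and 3 in March (range 0 to 7). Over both captures, 49 cells carried 3 of them, 44 carried 4, 27 carried 5, 3 carried 6, 1 carried 7 and 4 carried 0. Most cells were thus high for some of the set and low for others.

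Cell-to-cell variation was taken as the coefficient of variation (CV) of linear values within each run, and read against genes of the same decile of mean linear value, since CV falls with level. Tcf7 had CVs of 1.43, 1.24, 1.16 and 1.08 in Mar1, Mar17, Apr13 and Apr21, with a mean of 1.23 that only 15.1% of genes of its level fell below. Lef1 had a mean CV of 1.60, with 27.0% of such genes below it, and Foxo1 one of 2.35, with 10.05% below it. Satb1, at 2.29, and Foxp1, at 2.14, were close to the median CV of their level, 2.16. Foxn3 had a mean CV of 2.89, with 81.9% of the genes of its decile below it. With a mean linear value of 134.6 it lay near the lower edge of the top decile, and the median CV of the decile below was 3.30. Its CV was 2.34 and 1.78 in the March runs, at mean linear values of 279 and 232. In the April runs it was 3.31 and 4.13, at 33.4 and 44.9. The decile was set over all cells, so the April CVs were read against genes of higher level. Bach2 had the largest CV, 4.14, but the median for its level was 4.58. The median CV was 2.29 over the 7 members and 3.86 over all genes.

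**Figure D2:**
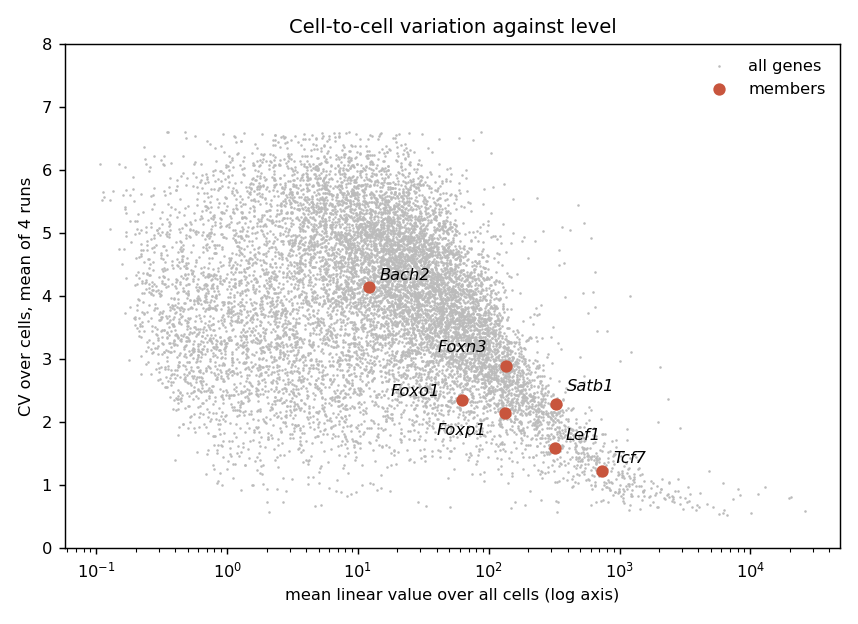
CV over cells of the linear value (mean of 4 runs, y axis) against the mean linear value over 178 cells (log x axis), with all genes in grey and the 7 members named. Tcf7 lies low at 1.23, and Bach2 at 4.14 sits among genes of low level. Foxn3 at 2.89 lies above most genes of the top decile, near its lower edge.

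Foxn3 differed most between the captures. Its median log2 value was 0.55 in Apr13 and 0.32 in Apr21, against 2.33 in Mar1 and 1.18 in Mar17, and its upper quartile was 3.13 and 3.24 in the April runs against 7.36 and 8.57 in the March runs. Both April runs were below both March runs. Its mean was 1.80 in April and 3.88 in March, a difference of -2.08, and 0 of 12432 genes had a more negative one. That count takes in genes of all levels. The median of their mean log2 values was 0.75, so that many of them could not fall so far. The members were also chosen with earlier results of these data known, so that this place is a description only. Foxn3 was above 0 in 56 of 96 April cells and 79 of 82 March cells, and at 10 or more on the linear scale in 21.9% of April cells and 39.0% of March cells. The values of the other members were closer. April minus March was -0.997 for Foxp1, with 68 genes lower, -0.96 for Satb1, with 85 genes lower, -0.59 for Bach2, -0.24 for Lef1, 0.27 for Foxo1 and 0.52 for Tcf7, against a median of 0.031 over all genes. With 1 capture a month, the month, the mice and the handling of the cells cannot be told apart. The share of the signal in mitochondrial genes was a median of 8.40% in April and 7.30% in March cells, and its part in these differences was not tested.

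Co-expression was measured as Spearman's rho over the cells of a run and averaged over the 4 runs, with no p, since the cells of a run share their capture and depth. Across the 21 pairs the mean rho was above 0 in 16. Its median was 0.038, against 0.026 over all pairs of 6912 genes above 0 in at least 25% of cells of each capture. Of all those pairs, 37.9% had a mean rho below -0.00018, so that most of them were above 0 as well. Spearman's rho was positive in all 4 runs for 4 of the 21 pairs, where 11.4% of all gene pairs were. It was negative in all 4 for 0 of the 21, where 4.24% of all gene pairs were. The 4 positive pairs were Lef1 with Satb1, Satb1 with Foxn3, Satb1 with Foxo1 and Foxp1 with Foxn3. Tcf7 and Lef1, the closest relatives, had rho of 0.24, -0.12, 0.18 and 0.12 in Mar1, Mar17, Apr13 and Apr21, a mean of 0.10. Tcf7 and Bach2 had 0.26, 0.064, -0.017 and 0.31. The median over the pairs was 0.12 in Mar1, 0.14 in Mar17, -0.024 in Apr13 and 0.11 in Apr21, so that Apr13 stood apart from the other 3.

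Several pairs changed sign between the captures. Bach2 and Foxn3 had rho of -0.27 and -0.22 in the April runs, against 0.20 and 0.25 in the March runs, with Bach2 at a linear value of 1 or more in 20.8% of all cells. Foxo1 and Foxp1 had -0.16 and -0.24 in the April runs, against 0.20 and 0.24 in the March runs. In April, 7 of 35 cells high for Foxp1 were also high for Foxo1, as were 29 of 61 cells that were not. The counts were 3 of 12 and 5 of 13 in Mar1 and 12 of 25 and 9 of 32 in Mar17, so that at this bar Mar1 did not share the direction of Mar17. These differences were not tested.

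**Figure D3:**
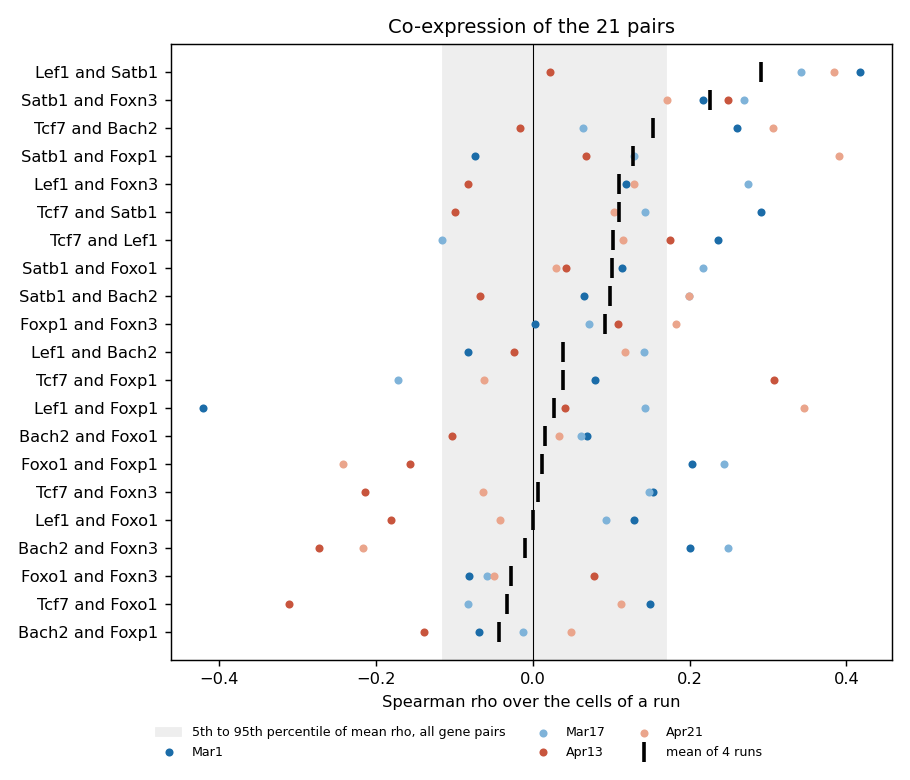
Spearman's rho over cells for the 21 pairs, one row per pair, with a point for each run and a black tick at the mean of 4 runs; the grey band spans the 5th to 95th percentile of mean rho over all gene pairs, -0.11 to 0.17. Lef1 with Satb1 (mean 0.29) and Satb1 with Foxn3 (mean 0.23) lie beyond the band, and the runs of most other pairs fall on both sides of 0.

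Lef1 and Satb1 gave the highest value of the set. Their rho was 0.42 in Mar1, 0.34 in Mar17, 0.022 in Apr13 and 0.38 in Apr21, a mean of 0.29 that 99.9% of all gene pairs fell below. It was 0.38 without Apr13, 0.27 without the 3 mitochondrial cells and 0.29 when the number of genes detected was held constant by partial correlation. Counted as high or not, Lef1 was high in 9 of 11 cells high for Satb1 and 5 of 14 others in Mar1, in 31 of 34 and 15 of 23 in Mar17, in 13 of 19 and 23 of 29 in Apr13, and in 21 of 23 and 15 of 25 in Apr21. In 3 of 4 runs Lef1 was more often high where Satb1 was, and in Apr13 it was not. Over all cells the share was 85.1% (75.8% to 91.8%) in Satb1-high cells and 63.7% (53.0% to 73.6%) in the others. In March it was 88.9% (75.9% to 96.3%) and 54.1% (36.9% to 70.5%). In April it was 81.0% (65.9% to 91.4%) and 70.4% (56.4% to 82.0%), and the intervals overlapped. All of them cover counting error only and treat cells as independent, and the difference was not tested. Satb1 and Foxn3, the next pair, had rho of 0.22, 0.27, 0.25 and 0.17, the most even over the runs, although at the higher bar Satb1 was high in 30 of 53 Foxn3-high cells and 57 of 125 others.

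**Figure D4:**
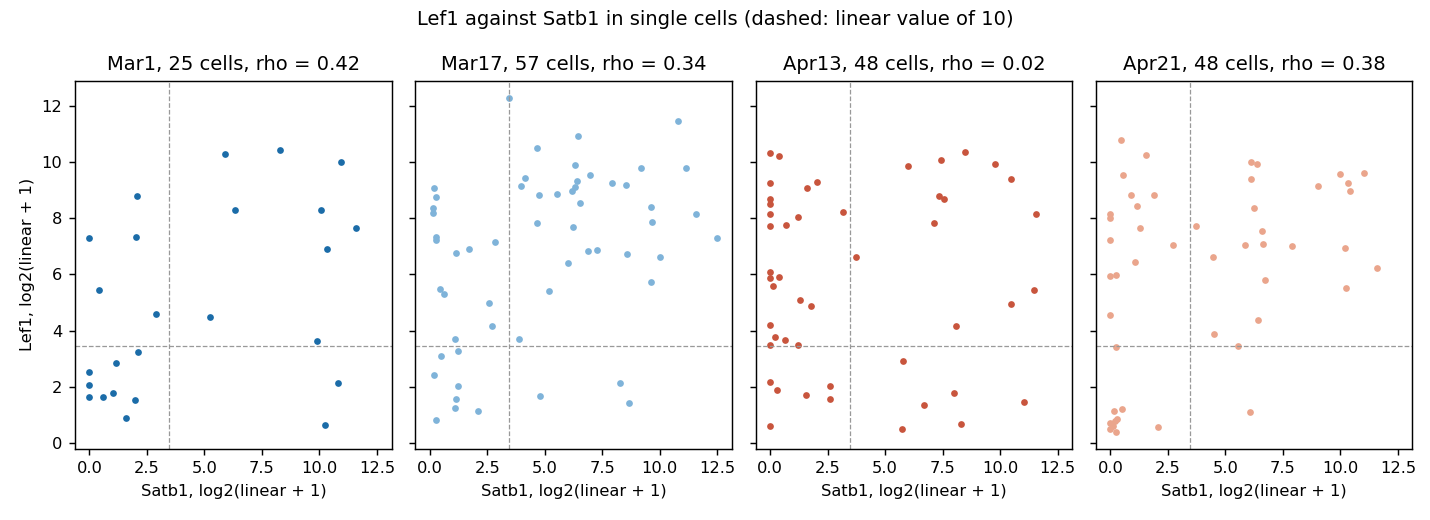
Lef1 (y axis) against Satb1 (x axis), deposited log2 values, one panel per run and one point per cell, with dashed lines at a linear value of 10. Cells high for Satb1 and low for Lef1 are few in Mar1 (2 of 11), Mar17 (3 of 34) and Apr21 (2 of 23) and more frequent in Apr13 (6 of 19).

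Because Lef1 and Satb1 varied together, the window of 250 bases before to 50 after the most upstream start site of each, from the RefSeq promoter table (GRCm38.p6), is shown, chr3:131110047-131110346 on the plus strand for Lef1 and chr17:51833241-51833540 on the minus strand for Satb1. Capitals mark the only matches found to 5 motifs searched on both strands, a GC box GGGCGG, 32 bases before the Lef1 start, and a CCAAT box, 36 bases after the Satb1 start.
Lef1: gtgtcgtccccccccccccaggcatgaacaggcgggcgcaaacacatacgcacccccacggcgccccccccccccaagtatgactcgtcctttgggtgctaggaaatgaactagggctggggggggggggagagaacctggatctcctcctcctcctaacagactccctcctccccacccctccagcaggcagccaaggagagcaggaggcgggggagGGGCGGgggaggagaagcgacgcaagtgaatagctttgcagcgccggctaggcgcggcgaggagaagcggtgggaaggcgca
Satb1: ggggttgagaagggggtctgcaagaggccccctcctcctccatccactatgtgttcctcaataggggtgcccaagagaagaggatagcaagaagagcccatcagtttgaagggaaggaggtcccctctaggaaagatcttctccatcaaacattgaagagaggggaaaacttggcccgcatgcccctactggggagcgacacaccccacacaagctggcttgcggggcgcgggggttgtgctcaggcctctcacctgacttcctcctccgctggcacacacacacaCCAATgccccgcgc
Of 32851 such windows, 35.7% held GGGCGG and 37.4% held CCAAT. All 7 members were in that table, and each printed window held 1 match. Lef1 had 4 windows there and Satb1 5, and matches are given for the most upstream of each only. Which start sites these cells use was not examined. The TCF/LEF core CTTTGA (in 16.0% of windows), the forkhead motif GTAAACA (3.65%) and the AP-1-like motif TGAGTCA (5.20%) are not among the letters of either window. The Lef1 window held 18 CpG and the Satb1 window 8, against a median of 7.

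Genes that followed each member were ranked by mean rho among 6910 genes, and counted where the sign was the same in all 4 runs. For Tcf7, 9.62% of genes were positive in all 4 runs and 4.72% negative. Among the highest were Evl, an actin regulator, at 0.29 and Rab3d, a GTPase of secretory vesicles, at 0.28, and the lowest were Hnrnpll, an RNA-binding protein of Ptprc splicing in activated T cells, at -0.26 and the proteasome subunit Psmb3 at -0.24. For Lef1 the shares were 6.05% and 8.39%. Klf13, a Krüppel-like zinc finger factor, was highest and even over the runs, at 0.33, 0.34, 0.35 and 0.39 (mean 0.35), followed by the ribosomal protein genes Rpl32 at 0.35 and Rps29 at 0.34. Acnat1, an acyltransferase, at -0.33 and the proteasome ATPase Psmc1 at -0.32 were lowest. For Satb1, with shares of 6.41% and 7.18%, the elongation factor gene Eef1a1 led at 0.38 (0.50, 0.34, 0.43 and 0.26 by run), with Rpl37 and Rps29 at 0.36, and Rasgrp4, a Ras exchange factor, at -0.29 and Chst2, a sulfotransferase, at -0.28 were lowest. Klf13 had a mean rho of 0.34 with Satb1 as well, and -0.015 with Tcf7.

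For Bach2, 11.5% of genes were positive in all 4 runs and 4.56% negative, led by the unnamed ENSMUSG00000078667 at 0.34, Gm11525 at 0.34 and the kinase gene Braf at 0.33, with the chaperone subunit Pfdn1 at -0.29 and the sheddase Adam10 at -0.27 at the other end. For Foxo1 the shares were 13.7% and 2.79%. Its highest genes were Kdelr2, a receptor that returns proteins to the endoplasmic reticulum, at 0.31, Sirt1, a deacetylase that acts on FoxO proteins, at 0.31 and 8430429K09Rik at 0.30, and its lowest were Larp4b, an RNA-binding protein, at -0.29 and Trim25, a ubiquitin ligase, at -0.22. Foxo1 also followed the number of genes detected in a cell, with rho of 0.28, 0.23, 0.15 and 0.41 in the 4 runs, and with that number held constant Sirt1 stood at 0.26. For Foxp1 the shares were 10.5% and 4.98%, with Gm13528 at 0.34, Cd27, a costimulatory receptor of naive and memory cells, at 0.29 and the exporter Abcc1 at 0.28, against Actg1, γ-actin, at -0.31 and the integrin Itgav at -0.28. For Foxn3 the shares were 10.7% and 3.94%, with the proton pump subunit Atp6v1d at 0.32 and Pdcd6ip, which encodes ALIX, at 0.26, against ENSMUSG00000092299 at -0.25 and the ubiquitin-conjugating enzyme Ube2d3 at -0.24.

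For the mean rho over the 7 members, 13.7% of 6904 genes were positive in all 4 runs and 3.61% negative. Chd2, a chromatin remodeller, was highest at 0.15, followed by Ntrk2, Zfp512b, Casc4, Rps23, Spata1, Taf1 and Stx4a between 0.14 and 0.13. Asrgl1, Psmc1, Tbc1d1, Txn1 and Gm8399 were lowest, between -0.11 and -0.10. Across genes, rho in the April runs and rho in the March runs were almost unrelated, with Pearson's r between 0.0047 for Satb1 and 0.13 for Bach2, over genes that are not independent. A gene's place in these orders is thus a description of these runs, and the groups below are given by counts and medians.

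Of 18 quiescence and restraint genes tested, 6 were positive in all 4 runs with each of Lef1, Satb1 and Foxp1, where 6.05%, 6.41% and 10.5% of all genes were, and 0 were negative. The median rho over the list was 0.062, 0.068 and 0.082, against -0.0089, -0.0015 and 0.019 over all genes. The other members did not share this. With Tcf7, Bach2, Foxo1 and Foxn3, 1, 0, 1 and 3 genes were positive, where 9.62%, 11.5%, 13.7% and 10.7% of all genes were. With each of these members 1 was negative, where 4.72%, 4.56%, 2.79% and 3.94% of all genes were. The medians with them were 0.015, 0.0017, 0.0038 and 0.015, each below that over all genes (0.020, 0.025, 0.040 and 0.025). Dgka, a kinase that damps T cell receptor signals, had 0.23 with Lef1 and 0.23 with Satb1. Btg1, which slows proliferation, had 0.23 with Satb1, 0.15 with Foxp1, 0.13 with Tcf7 and 0.18 with Foxn3. Ets1, a T cell factor, had 0.23 with Lef1. Named after their values were seen, Cdkn1b, the p27 cell cycle inhibitor, had 0.22 with Lef1, 0.16 with Satb1 and 0.18 with Foxp1, and Klf2 had 0.21 with Satb1 (0.26, 0.20, 0.23 and 0.13 by run). Without the 3 mitochondrial cells the count was 5 positive and 1 negative for Lef1, 3 and 0 for Satb1 and 7 and 0 for Foxp1, and the median was 0.014 for Lef1 and 0.041 for Satb1, against -0.022 and -0.014 over all genes.

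Among 14 naive, memory and stem-like genes, 3 were positive in all 4 runs with Tcf7, 3 with Lef1, 4 with Foxp1, 2 with Bach2, 2 with Foxn3 and 1 with Satb1, and 0 with Foxo1. These are shares of few genes. Of all genes, 9.62% were positive in all 4 runs with Tcf7, 6.05% with Lef1 and 10.5% with Foxp1. The shares were 11.5% with Bach2, 10.7% with Foxn3, 6.41% with Satb1 and 13.7% with Foxo1. The counts with Bach2, Foxn3 and Satb1 are near these shares. Cd27 had 0.29 with Foxp1 and 0.17 with Bach2, Actn1 0.16 with Bach2, and the homing receptor Ccr7 0.17 with Foxp1. Chosen after their values were seen, S1pr1, the receptor that lets T cells leave lymph nodes, had 0.22 with Lef1, 0.22 with Satb1 and 0.16 with Foxn3. Il7r, the interleukin-7 receptor, had 0.080 with Tcf7, positive in 4 of 4 runs.

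Of 19 activation genes tested, 6 were negative in all 4 runs with Lef1, where 8.39% of all genes were, 1 was positive and the others had runs of both signs, with a median of -0.085, and the counts were 7 and 1 without the mitochondrial cells. The 6 were Tnfrsf4, which encodes OX40, at -0.21, Tigit at -0.19, Egr1 at -0.19, Ctla4 at -0.19, Lgals1, galectin-1, at -0.15 and S100a6 at -0.12, named after their values were seen. With Tcf7 1 of the 19 was negative, Lgals1 at -0.18, and with Satb1 0 were, where 4.72% and 7.18% of all genes were. With Foxp1 and Foxo1 the mean rho was above 0 for 15 and 14 of the 19. In all 4 runs 3 and 2 were positive, where 10.5% and 13.7% of all genes were. With each of the 2 factors 1 was negative, where 4.98% and 2.79% of all genes were. Both medians were 0.032, against 0.019 and 0.040 over all genes. With the number of genes detected held constant they were 0.034 with Foxp1 and -0.0056 with Foxo1. With Bach2 0 were positive and 1 negative in all 4 runs, where 11.5% and 4.56% of all genes were. With Foxn3 the counts were 1 and 2, where 10.7% and 3.94% of all genes were. These are counts of few genes. Elsewhere on the list, the costimulator Icos had -0.19 with Bach2 and Vim, which encodes vimentin, 0.26 with Foxo1. Of 14 effector and lineage factors, 3 were negative in all 4 runs with Tcf7, 3 with Satb1, 3 with Bach2 and 2 with Lef1, where 4.72%, 7.18%, 4.56% and 8.39% of all genes were. With Foxo1, 0 were negative and 1 was positive in all 4 runs, where 2.79% and 13.7% of all genes were. The mean rho was above 0 for 12 of the 14. The median was 0.077, against 0.040 over all genes, and 0.025 with the number of genes detected held constant. Maf, a factor of several effector lineages, was negative in all 4 runs with Satb1 at -0.24, with Lef1 at -0.18 and with Bach2 at -0.15, and Maf itself was higher in April, at 6.37, than in March, at 4.64. Zeb2, another effector factor, went against the list, at 0.22 with Satb1.

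Of 12 tested genes that Foxo1 is known to drive or restrain in T cells, 2 were positive and 1 negative in all 4 runs with Foxo1, and their median rho was 0.022, against 0.040 over all genes. Il7r was the negative one, at -0.099. Ccr7 had 0.13, 0.19, -0.15 and 0.068, and Klf2 0.37, 0.14, -0.030 and -0.54 in chronological order, so that Klf2 was negative in both April runs and positive in both March runs. Among 15 kinases, phosphatases and partners upstream of FoxO, 6 were positive and 1 negative in all 4 runs with Foxo1, where 13.7% and 2.79% of all genes were, with Sirt1 at 0.31, Inpp5d, the SHIP1 phosphatase, at 0.22 and Ywhaz, a 14-3-3 protein, at -0.13. Foxo3, the close relative, had -0.21 with Foxo1, negative in 4 of 4 runs, and 0.22 with Foxp1. Of 17 proliferation genes, 7 were positive in all 4 runs with Foxo1, among them Mcm5 at 0.19 and Top2a at 0.17, and 0 with Lef1, where 13.7% and 6.05% of all genes were. The median over that list with Foxo1 was 0.094, against 0.040 over all genes, and 0.052 with the number of genes detected held constant.

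Of 10 TCF/LEF and Wnt pathway genes tested, 1 was positive in all 4 runs with Tcf7, Tcf7l2 at 0.10. With Lef1 1 was positive, Bcl9l at 0.12, and 1 was negative in all 4 runs. Of all genes, 9.62% were positive with Tcf7, and 6.05% positive and 8.39% negative with Lef1. These counts are thus near the shares over all genes. The β-catenin gene Ctnnb1 was at 0 in the median cell. Tcf7l2 had 0.21 with Bach2, 0.20 with Foxp1 and 0.17 with Foxo1, and Tcf7l1 0.20 with Bach2. B cells express Bach2 too. The 4 B cell markers measured summed to linear values between 1.49 and 4869 in April cells and between 0.28 and 4254 in March cells. Of the 3 tested, 1 was positive in all 4 runs with Bach2, where 11.5% of all genes were. The part of these markers in the Bach2 values was not tested.

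**Figure D5:**
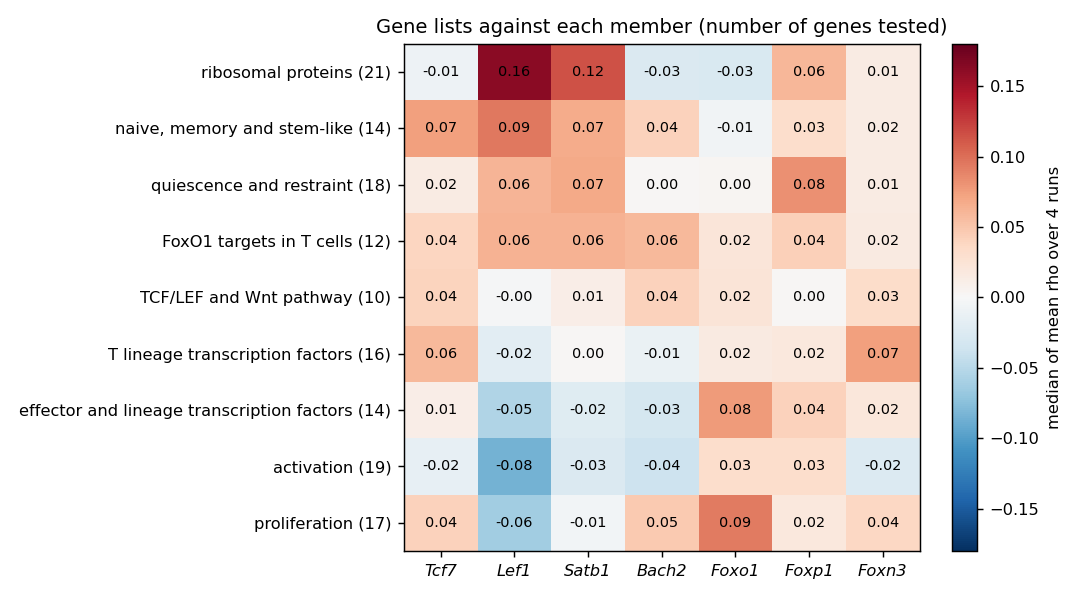
Median over each gene list (rows, number of genes tested in brackets) of the mean rho with each member (columns); red is positive, blue negative, and each cell gives the median. Marker lists, the list upstream of FoxO and the relatives of the members are not drawn. Among the lists drawn, the ribosomal protein genes with Lef1 (0.16) and Satb1 (0.12) have the highest medians and the activation list with Lef1 (-0.085) the lowest.

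Of 21 listed ribosomal protein genes, which encode part of the translation machinery, 8 were positive in all 4 runs with Lef1 and 6 with Satb1, where 6.05% and 6.41% of all genes were, and 7 and 3 without the 3 mitochondrial cells. The median over the 21 was 0.29, 0.24, -0.016 and 0.10 by run with Lef1 and 0.22, 0.17, -0.0083 and 0.080 with Satb1. Over all 73 in the table, a set taken after the listed ones had been seen, the mean rho was above 0 for 71 with Lef1 and 69 with Satb1, against 38 with Tcf7, and 30 and 27 were positive in all 4 runs, against 2 with Tcf7. The median over the 73 was 0.16 with Lef1 and 0.13 with Satb1, with 0.0088 for Tcf7, -0.022 for Bach2, 0.021 for Foxo1, 0.051 for Foxp1 and 0.026 for Foxn3. By run it was 0.32, 0.23, 0.055 and 0.13 with Lef1 and 0.21, 0.18, 0.033 and 0.12 with Satb1, lowest for both in Apr13, the run in which Lef1 and Satb1 themselves were unrelated. Without the 3 mitochondrial cells 26 of the 73 were positive in all 4 runs with Lef1 and 17 with Satb1, where 5.08% and 5.15% of all genes were, and the medians were 0.13 and 0.083. Ribosomal protein genes are abundant, with a median mean log2 value of 9.71 over the 21.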

How the data were processed

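Per the labels' protocols, single cells were captured on the Fluidigm C1 and their cDNA made with the SMART-Seq v4 kit, which reads whole transcripts, keeps no strand and adds no molecular identifiers. The authors deposited log2 values; their form (a per-length, per-million value plus 1) was read from the values. Linear sums were 892206 to 979888 per cell, and the lowest value above 0 of a gene fell with exon length (rho -0.65 over 12163 genes). The submitters' processing notes name mm10; the aligner and the counter were not given in the sources used here. 0 columns were left unmapped. Symbols and coordinates come from GENCODE vM21.

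All 178 cells were kept and no doublet caller was run. Spearman's rho with each member was computed per run with SciPy 1.17.1 (Python 3.11.15, numpy 2.4.6). Runs of a month count as 1 replicate. No p-values were computed, because the series gave 1 group. Without strand, reads of a gene and an antisense partner cannot be told apart: antisense exons cover 13.7% of the Lef1, 7.78% of the Foxo1, 5.40% of the Bach2 and 0.67% of the Satb1 exon length.

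The members and the gene lists were chosen with earlier results of these data known. Genes were named by rule: the 3 highest and 2 lowest per member with 1 sign in all 4 runs, 8 and 5 over the 7 members, and up to 3 per list by mean rho over members; other listed genes the text names were chosen after their values were seen. Some genes that this rule takes in are not reported here. Alternatives left out captures, runs or cells and changed the pseudocount, scaling, correlation or minimum share of cells.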

Additional observations from a re-analysis of the deposited data

How the results depend on the processing

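Leaving out 1 capture at a time moved the median level of the members from 3.67 to between 3.20 and 4.16, the median CV from 2.29 to between 2.14 and 2.37 and the median rho of the 21 pairs from 0.038 to between 0.036 and 0.11. A pseudocount of 10 gave a median level of 5.14 and the log2 of the mean linear value 6.999, both scales of their own. The SD of log2 values in place of the CV was 3.22, and Pearson's r in place of rho gave a median of 0.097 over the pairs. Summed over the 7 members, 7250 gene-member values had 1 sign in all 4 runs. With 1 capture left out only 2 runs had to share a sign, and the sum was 24715 to 25478; with 1 run left out it was 13284 without Mar1, 12883 without Mar17, 13573 without Apr13 and 13356 without Apr21. With no minimum share of cells it was 11595, and with a minimum of 50% of cells 4353, since more or fewer genes were tested. Of 252 recomputed pair values 40 changed sign, and of 385 list medians 40. Tcf7, Lef1 and Satb1 were the first 3 by level and Bach2 the last in every alternative run on levels, and Satb1 passed Lef1 with the log2 of the mean linear value. No paired analysis was possible because the series holds 1 group. The depth in reads is unknown and limits what values near 0 show.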
